A study of Mus musculus with 8 samples.

Results

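The axoneme, a ring of microtubule doublets around a central pair, is the core of the sperm tail and of motile cilia, and the genes described here belong to families named for its parts. Members were all genes whose symbol starts with Cfap, Dnah, Dnai, Dnal, Ift, Rsph, Tekt, Efcab, Spag or Ttll followed by a digit, taken from probe sets with exactly 1 symbol. Each gene was read from the probe set with the highest mean log2 intensity over the arrays. The rule found 95 genes of 18194 on the arrays, from 170 probe sets. They comprise 25 Cfap, 10 Dnah, 2 Dnal, 14 Ift, 6 Rsph, 5 Tekt, 11 Efcab, 10 Spag and 12 Ttll genes on 19 chromosomes. No Dnai gene was among them, and Dnai1, Dnai2, Cfap44, Rsph3b and Rsph10b are not analysed here. Of the 95 members, 92 reached a log2 intensity of 4, the floor used here, on at least 2 of the 8 arrays and were tested. Cfap47 and Dnah17 stayed under that floor on every array, and Dnah5 reached it on 1 control array alone.

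Dynein arms, whose heavy chains are the Dnah genes, walk along the neighbouring doublet and bend the axoneme. Radial spokes (Rsph) and the central apparatus (among them Spag6, Spag16 and Spag17) regulate that bending, tektins (Tekt) line the doublets from inside, and tubulin ligases (Ttll) add glutamate or glycine side chains to tubulin. Intraflagellar transport proteins (Ift) carry building material along the growing tail and also serve the immotile primary cilium of most somatic cells. In the testis the tail is assembled by spermatids, and many axoneme genes are first transcribed in spermatocytes. Family names do not make every member a tail gene: Spag5 encodes a mitotic spindle protein and Spag9 a scaffold of kinase signalling.

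RNA of whole testes from male mice at postnatal day 28 was measured on 1-colour oligonucleotide arrays, with 1 array per sample. All 8 samples came from Dmrt1 flox/flox mice on a mixed C57BL6/6J and 129 background, so floxed Dmrt1 is common to mutants and controls. The Sf1-Cre mice (n = 4 samples) also carried Cre under the promoter of Nr5a1, known as Sf1. The mice labelled Dhh-Cre (n = 2 samples) carried Cre under the Dhh promoter, and the controls (n = 2 samples) carried no Cre. The submitters call both drivers Sertoli cell-specific and call the samples biological replicates. The deposited values are GCRMA intensities, of which log2 was taken here.

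Dmrt1 itself, the floxed gene, had log2 intensities of 7.10, 7.89, 7.63 and 7.53 in Sf1-Cre, 10.43 and 9.94 in Dhh-Cre as labelled and 8.50 and 8.76 in controls. It was lower in Sf1-Cre testes than in controls and higher in the testes labelled Dhh-Cre than in controls. Whether the probe set reads the deleted part, and which cells of the whole testis gave this RNA, was not tested. These values therefore do not show whether the deletion took place in the group labelled Dhh-Cre, and every direction given below for it rests on the label. Median array intensity was 15.2 to 15.9 in Sf1-Cre, 15.3 to 15.5 for the Dhh-Cre label and 13.7 to 14.1 in controls, and the number of arrays limits the precision. Spink8, an epididymal gene, reached log2 10 or above on 3 arrays (Sf1-Cre arrays 1 and 3 and array 1 labelled Dhh-Cre). Calls given for single members that are lost without these arrays are given with the adjusted p or the change without them.

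Most members of these families had less RNA in the mutant testes. In Sf1-Cre testes against controls, 76 of the 92 members tested fell and 8 rose (1 with each array centred on housekeeping genes) by limma at an adjusted p under 0.05, where 33.2% of the 13802 genes tested fell and 46.6% rose. The members' share that fell was 82.6%, and their median log2 fold change was -2.14, against a median of 0.34 over all genes tested. The Sf1-Cre arrays all lay below the control arrays for 79 members and all above for 9, against 36.0% and 50.0% of all genes tested. In the testes labelled Dhh-Cre against controls, 79 members fell and 9 rose (2 with housekeeping centring), where 30.5% of all genes tested fell and 49.1% rose. The arrays labelled Dhh-Cre both lay below the control arrays for 80 members and above for 9, against 35.1% and 56.0% of all genes. There the median log2 fold change of the members was -3.67, against 0.54 over all genes. Housekeeping centring moved the median of all genes tested to -1.36 in Sf1-Cre and -1.16 in the testes labelled Dhh-Cre, and the housekeeping list itself had 10 of 13 genes higher in each mutant group. Because these are whole testes, fewer cells of a type and less RNA per cell cannot be told apart in any of these values.

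Both mutant groups were set against the same 2 control arrays, so their calls are not independent, and each comparison is given by its own values. Fitted falls of at least 16-fold, levels under the floor taken as they stand, numbered 14 in Sf1-Cre, against 5.48% of all genes tested, and 41 in the testes labelled Dhh-Cre, against 9.43%. With levels under the floor set to it, the members' median change stayed at -2.14 in Sf1-Cre and was -3.52 in the testes labelled Dhh-Cre. In Sf1-Cre the means of 5 members above the floor in controls lay under it, namely Efcab1, Rsph14, Spag17, Tekt5 and Ttll11, and all 5 were also under it in the testes labelled Dhh-Cre. A further 11 lay under the floor only in the testes labelled Dhh-Cre, among them Cfap61, Cfap97d1, Dnah9 and Ttll13. Of the members tested, 3 had no mutant array at the floor and entered the test through their controls, and Rsph4a entered it through the mutants.

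**Figure D1:**
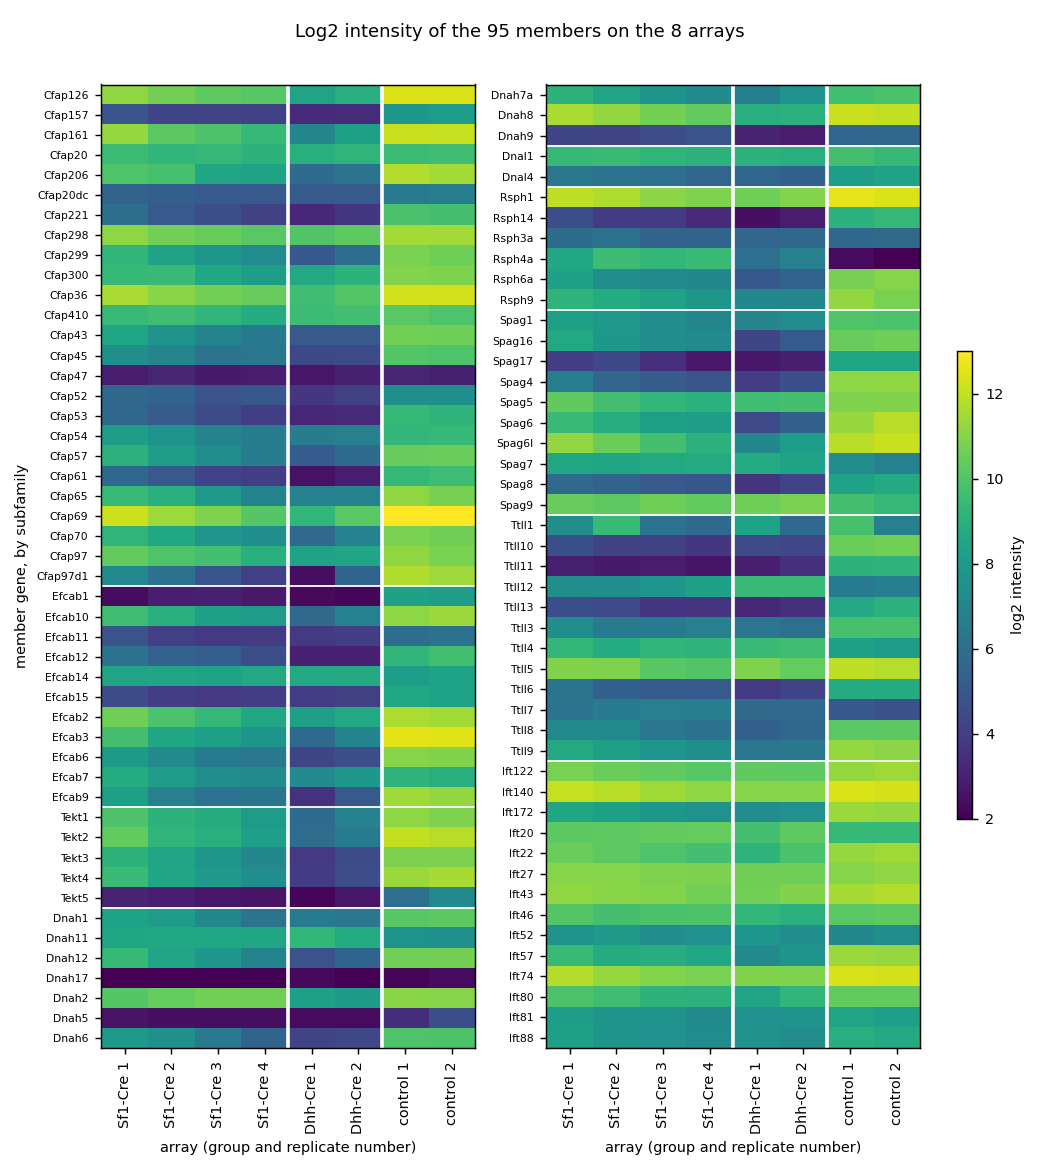
Log2 intensity of all 95 members (rows, by subfamily, divided by horizontal lines) on the 8 arrays (columns, vertical lines between Sf1-Cre, Dhh-Cre as labelled, and control). Yellow is high and dark blue low; most rows are brightest in the 2 control columns, darker in the 4 Sf1-Cre columns and darkest in the columns labelled Dhh-Cre, while Rsph4a is dark in controls alone.

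Promoter sequence could be read for 77 of the 95 members, in 86 windows of 250 bases before the RefSeq transcription start on GRCm38.p6. Windows from 5 members that moved differently are shown: Tekt3 and Spag6, with some of the widest gaps between the mutant groups, Rsph14 and Spag4, among the deepest falls, and Ift20, which rose. Capitals mark the letters GTTGCC or GTTGCTA, short forms of the X-box that RFX factors bind, or TGACGTCA, the cAMP response element, on either strand. GTTGCTA stands reversed, as TAGCAAC, where it matches the other strand.
Tekt3, chr11:63061409-63061658, plus strand: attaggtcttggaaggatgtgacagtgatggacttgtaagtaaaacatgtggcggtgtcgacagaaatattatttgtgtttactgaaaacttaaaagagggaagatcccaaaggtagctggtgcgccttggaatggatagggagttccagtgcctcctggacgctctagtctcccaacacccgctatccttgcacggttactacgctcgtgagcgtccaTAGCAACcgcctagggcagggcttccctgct
Spag6, chr2:18698772-18699021, plus strand: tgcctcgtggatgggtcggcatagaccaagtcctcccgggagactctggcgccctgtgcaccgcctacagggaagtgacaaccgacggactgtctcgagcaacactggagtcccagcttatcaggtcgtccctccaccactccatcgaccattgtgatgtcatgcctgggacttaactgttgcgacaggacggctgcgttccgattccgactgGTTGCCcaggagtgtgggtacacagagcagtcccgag
Rsph14, chr10:75032587-75032836, minus strand: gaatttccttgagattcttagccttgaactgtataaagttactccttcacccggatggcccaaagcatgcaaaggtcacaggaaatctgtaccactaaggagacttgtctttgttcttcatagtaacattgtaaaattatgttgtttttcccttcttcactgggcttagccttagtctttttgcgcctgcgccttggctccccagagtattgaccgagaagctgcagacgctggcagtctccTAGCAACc
Spag4, chr2:156064963-156065212, plus strand: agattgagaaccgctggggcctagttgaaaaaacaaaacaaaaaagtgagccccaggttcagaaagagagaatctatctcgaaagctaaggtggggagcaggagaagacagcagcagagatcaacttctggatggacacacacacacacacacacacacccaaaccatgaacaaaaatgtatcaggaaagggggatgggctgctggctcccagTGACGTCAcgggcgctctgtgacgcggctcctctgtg
Ift20, chr11:78536111-78536360, plus strand: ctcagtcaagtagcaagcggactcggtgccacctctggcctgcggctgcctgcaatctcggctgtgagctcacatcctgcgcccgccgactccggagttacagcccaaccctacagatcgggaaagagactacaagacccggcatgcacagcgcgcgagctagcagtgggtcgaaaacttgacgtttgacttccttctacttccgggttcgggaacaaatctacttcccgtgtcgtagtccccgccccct
Ift20 holds none of the 3 marked motifs in its window. The window of Rsph6a, not shown, holds none of them either, although Rsph6a fell in both mutant groups. GTTGCTA also stands in a window of Ift52, which passed in neither mutant group against controls. No link between a motif and a direction of change was tested. GTTGCTA was found in 14.0% of the member windows, against 3.16% of all 32851 windows of this length. GTTGCC was found in 23.3% of member windows against 10.4% of all windows, and TGACGTCA in 5.81% against 1.55%. Searched on both strands were 14 motifs: these 3, the longer X-box forms GTTGCCA and GTTGCCATG with 5 longer still, the forkhead letters TAAACA and TGTTTAC, and the Dmrt1 letters CATTGT within ACATTGT. Several contain one another. The forkhead core TAAACA was in 22.1% of member windows against 12.0% of all. ACATTGT, letters of the Dmrt1 motif, was in 3.49% against 2.56%, a share that rests on 3 windows of 2 members. The shorter CATTGT was in 10.5% against 10.7%. Of the X-box forms longer than GTTGCCATG, those found in 0.469% and 0.98% of all windows were in 0 member windows. All other motifs searched had higher shares in member windows than in all windows. The 3 motifs marked were chosen after these shares were seen, and a match describes letters in a window and no binding site. Among transcription factors of the axoneme programme, Rfx2 had log2 intensities of 7.43, 7.19, 6.50 and 6.52 in Sf1-Cre, 5.77 and 6.27 in Dhh-Cre as labelled and 10.03 and 9.91 in controls, with both mutant groups below the controls. Foxj1, which drives motile cilium genes, read 3.70, 3.14, 3.13 and 2.99 in Sf1-Cre, 2.40 and 2.11 in Dhh-Cre as labelled and 6.53 and 7.03 in controls, so that all 6 mutant arrays lay under the floor. Of the 9 such factors listed, 8 fell in each mutant group, and Rfx3 passed in neither.

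The radial spoke genes held the largest rise of all members beside some of the deeper falls. Rsph4a, a spoke head protein of motile cilia, had log2 intensities of 8.56, 9.54, 9.29 and 9.49 in Sf1-Cre, 6.04 and 6.77 in Dhh-Cre as labelled and 2.30 and 2.04 in controls. The 3 groups did not overlap, with both control arrays under the floor and Sf1-Cre highest. The fitted change was 7.05 ± 0.32 in Sf1-Cre (SE, limma adjusted p = 1.04e-06), at least 37.3-fold above the floor, and 4.24 ± 0.37 in the testes labelled Dhh-Cre (adjusted p = 2.56e-05), at least 5.29-fold. Sf1-Cre exceeded the arrays labelled Dhh-Cre by 2.82 ± 0.32 on the log2 scale (adjusted p = 0.00129), a 7.04-fold difference. Without the 3 arrays of high Spink8 that difference was 2.75 (adjusted p = 0.00914). Rsph4a also stayed higher when each array was centred on housekeeping genes, by 5.35 in Sf1-Cre and 2.54 in the testes labelled Dhh-Cre.

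Its close relative Rsph6a, the spoke head protein of the sperm tail, moved the other way. Rsph6a read 8.29, 7.48, 7.26 and 7.12 in Sf1-Cre, 5.01 and 5.48 in Dhh-Cre as labelled and 10.76 and 11.02 in controls, again with 3 groups that did not overlap, but with controls highest. It was 10.2-fold lower in Sf1-Cre (log2 -3.35 ± 0.33, adjusted p = 3.85e-05) and 49.9-fold lower in the testes labelled Dhh-Cre (log2 -5.64 ± 0.38, adjusted p = 8.23e-06). Sf1-Cre lay above the arrays labelled Dhh-Cre for this gene too, by 2.29 ± 0.33 (adjusted p = 0.00315). No test was made of one gene's level against the other's, since they come from different probe sets.

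Rsph9, another head protein, read 9.17, 8.80, 8.35 and 7.81 in Sf1-Cre, 7.13 and 7.05 in Dhh-Cre as labelled and 11.24 and 10.81 in controls, and every mutant array lay below the controls. Its log2 changes were -2.49 ± 0.35 in Sf1-Cre and -3.93 ± 0.40 in the testes labelled Dhh-Cre. Rsph1, also of the spoke head, read 11.94, 11.68, 11.09 and 10.87 in Sf1-Cre, 10.56 and 10.96 in Dhh-Cre as labelled and 12.61 and 12.42 in controls. Its changes were smaller, at -1.12 ± 0.31 (adjusted p = 0.0103; 0.0714 without control array 1) and -1.75 ± 0.36 (adjusted p = 0.00219). Rsph14 had the deepest fall of the family in Sf1-Cre and read 4.63, 3.97, 3.86 and 3.29 in Sf1-Cre, 2.43 and 2.88 in Dhh-Cre as labelled and 9.02 and 9.32 in controls, at least 35.9-fold lower in both mutant groups because both means lay under the floor. Rsph3a, of the spoke stalk, read 5.89, 6.05, 5.48 and 5.57 in Sf1-Cre, 5.58 and 5.73 in Dhh-Cre as labelled and 5.71 and 5.82 in controls, and its changes of -0.02 ± 0.19 and -0.11 ± 0.22 did not pass (adjusted p = 0.935 and 0.665). A second Rsph3a probe set, dimmer on the mutant arrays, had log2 changes of -1.71 in Sf1-Cre and -2.73 in the testes labelled Dhh-Cre.

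Markers of multiciliated epithelium, the other cells that build motile axonemes, are given beside Rsph4a because a testis sample can hold ducts. Of 12 such markers read, 9 were tested, of which 2 rose and 7 fell in Sf1-Cre and 1 rose and 6 fell in the testes labelled Dhh-Cre. Their summed intensity was 1291 to 3632 in Sf1-Cre, 817.0 to 863 with the Dhh-Cre label and 8751 to 8843 in controls. Deup1, Cdhr4 and Dynlrb2 made up most of that sum in controls, and all 3 were highest there. The marker Foxj1 was under the floor on all 6 mutant arrays, as given above, and Tmem212 and Fam216b were under it on every array. Ccdc153 and Tppp3 rose in Sf1-Cre, and Ccdc153 read 5.69, 6.07, 5.94 and 6.78 in Sf1-Cre, 4.80 and 4.81 in Dhh-Cre as labelled and 4.38 and 3.92 in controls. Spink8 read 12.05, 5.79, 10.49 and 6.46 on Sf1-Cre arrays 1 to 4, 11.55 and 4.48 on the pair labelled Dhh-Cre, and 6.87 and 3.11 on the control arrays. Many markers of somatic testis cells rose as well. In Sf1-Cre these were 6 of 7 granulosa, 10 of 10 macrophage, 4 of 5 Leydig, 4 of 4 endothelial, 4 of 6 peritubular and 7 of 13 Sertoli markers tested, where 46.6% of all genes rose. In the testes labelled Dhh-Cre they were 5, 10, 3, 4, 5 and 11 of the same lists, where 49.1% of all genes rose. The Sertoli share in Sf1-Cre, 53.8%, was near that of all genes. Falls were called for 3 Sertoli markers and 1 peritubular marker in Sf1-Cre, where 33.2% of all genes fell. In the testes labelled Dhh-Cre 0 Sertoli markers and 1 peritubular marker fell, where 30.5% of all genes fell. Of the markers tested, 1 granulosa and 0 endothelial markers had a control mean at or above the floor. The rest of these 2 lists entered the test mainly through mutant arrays, so their rises are not comparable with the shares over all genes. The part of any of these cells in the Rsph4a result was not tested.

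**Figure D2:**
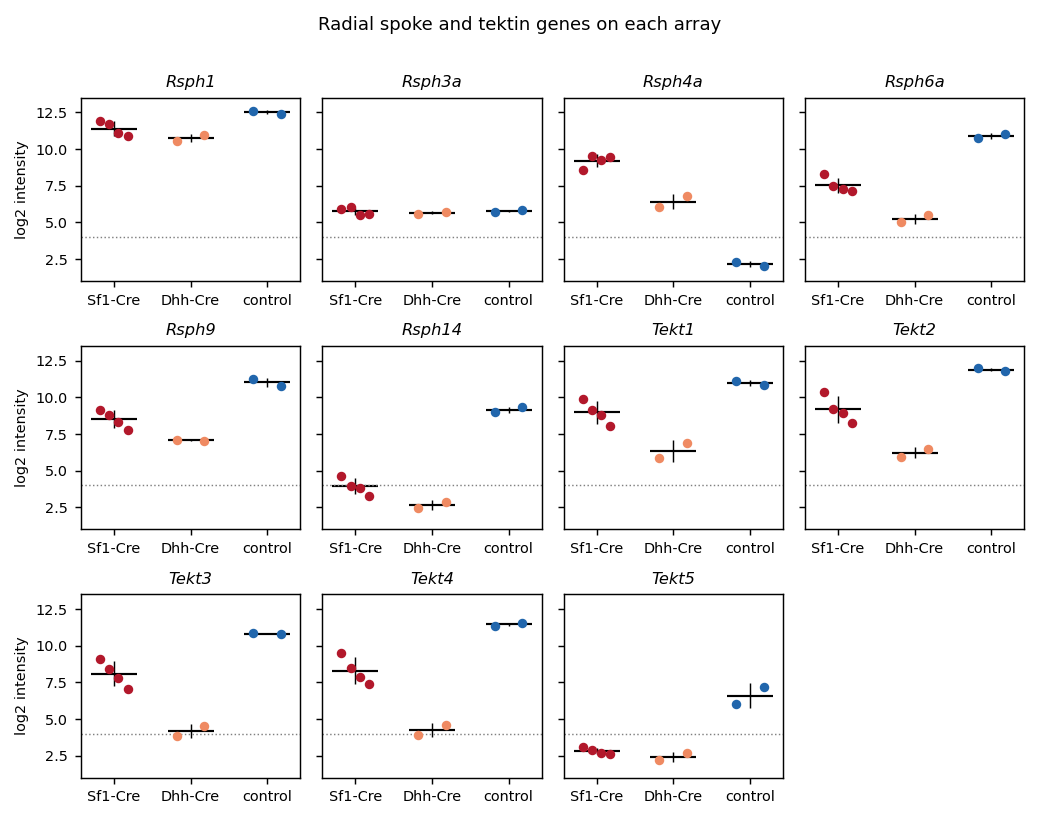
Log2 intensity of the 6 radial spoke and 5 tektin genes on each array (points), with group means (bars) and SD (vertical lines) for Sf1-Cre (n = 4), Dhh-Cre as labelled (n = 2) and control (n = 2); the dotted line is the floor at log2 4. Rsph4a is highest in Sf1-Cre and under the floor in controls, the other spoke genes apart from Rsph3a and all tektins are highest in controls, and Tekt3 and Tekt4 stand well above the floor in Sf1-Cre and at it in Dhh-Cre.

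All 5 tektins fell in both mutant groups, and 4 of them separated the mutant groups from each other. Tekt4 read 9.48, 8.46, 7.90 and 7.38 in Sf1-Cre, 3.94 and 4.59 in Dhh-Cre as labelled and 11.36 and 11.55 in controls, with no overlap between any groups. It was 8.87-fold lower in Sf1-Cre than in controls (log2 -3.15 ± 0.52, adjusted p = 0.000726) and 146-fold lower in the testes labelled Dhh-Cre (log2 -7.19 ± 0.60, adjusted p = 2.05e-05). Tekt3 read 9.09, 8.42, 7.84 and 7.09 in Sf1-Cre, 3.84 and 4.51 in Dhh-Cre as labelled and 10.85 and 10.82 in controls, a pattern like that of Tekt4. Its changes were -2.72 ± 0.50 in Sf1-Cre and -6.66 ± 0.58 in the testes labelled Dhh-Cre. Tekt2 read 10.37, 9.22, 8.91 and 8.23 in Sf1-Cre, 5.95 and 6.48 in Dhh-Cre as labelled and 11.98 and 11.81 in controls, and Sf1-Cre again lay between the other groups. Tekt1 read 9.92, 9.12, 8.81 and 8.06 in Sf1-Cre, 5.84 and 6.89 in Dhh-Cre as labelled and 11.12 and 10.86 in controls, with changes of -2.01 ± 0.49 and -4.62 ± 0.57. Tekt5, a tektin of sperm, read 3.07, 2.87, 2.69 and 2.59 in Sf1-Cre, 2.19 and 2.66 in Dhh-Cre as labelled and 6.01 and 7.20 in controls, so both mutant means were under the floor and the fall was at least 6.09-fold in each. Between the mutant groups Tekt4 was 16.5-fold higher in Sf1-Cre (log2 4.04 ± 0.52, adjusted p = 0.00214) and Tekt3 15.3-fold higher (log2 3.93 ± 0.50, adjusted p = 0.00195). Tekt2 and Tekt1 exceeded the arrays labelled Dhh-Cre by 2.96 ± 0.51 and 2.61 ± 0.49 (adjusted p = 0.00647 and 0.00916). Without array 1 labelled Dhh-Cre those 2 differences were 2.70 and 2.08 (adjusted p = 0.0613 and 0.0846), and without the high-Spink8 arrays that of Tekt1 was 1.69 (adjusted p = 0.103).

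Dynein heavy chains fell in 7 of 8 cases in each mutant group, with a median log2 change of -1.40 in Sf1-Cre and -2.99 in the testes labelled Dhh-Cre. Dnah2, an inner arm chain, read 10.11, 10.39, 10.65 and 10.61 in Sf1-Cre, 8.24 and 7.99 in Dhh-Cre as labelled and 11.06 and 10.99 in controls. Its Sf1-Cre arrays lay only just below the controls, and both arrays labelled Dhh-Cre lay far below. The change was -0.58 ± 0.19 in Sf1-Cre (adjusted p = 0.0195; 0.0961 without control array 1, 0.0688 without control array 2 and 0.0584 without the high-Spink8 arrays) and -2.90 ± 0.21 in the testes labelled Dhh-Cre (adjusted p = 1.19e-05). The difference of 2.32 ± 0.19 between the mutant groups had the smallest adjusted p of all members, 0.000303. Among the Sf1-Cre arrays it was highest on array 3, unlike most members that fell.

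Dnah8, an outer arm chain of the sperm tail, read 11.58, 11.23, 10.69 and 10.37 in Sf1-Cre, 8.91 and 9.02 in Dhh-Cre as labelled and 12.12 and 11.98 in controls. It was 2.12-fold lower in Sf1-Cre (adjusted p = 0.0136; 0.0821 without control array 1 and 0.055 without control array 2) and 8.48-fold lower in the testes labelled Dhh-Cre. Dnah1, an inner arm chain required for the mouse sperm tail, read 8.37, 8.06, 7.11 and 6.25 in Sf1-Cre, 6.57 and 6.35 in Dhh-Cre as labelled and 10.14 and 10.25 in controls. Its changes were -2.75 ± 0.53 and -3.73 ± 0.62, and the mutant groups overlapped. Dnah7a, another inner arm chain, read 9.09, 8.40, 7.71 and 7.28 in Sf1-Cre, 6.75 and 7.59 in Dhh-Cre as labelled and 9.67 and 9.85 in controls, with changes of -1.64 ± 0.48 (adjusted p = 0.0139; 0.0584 and 0.0829 without control array 1 or 2) and -2.59 ± 0.56. Dnah6 and Dnah12 changed by -3.04 ± 0.59 and -2.54 ± 0.59 in Sf1-Cre and by -5.61 ± 0.68 and -5.51 ± 0.68 in the testes labelled Dhh-Cre. Dnah9, an outer arm chain of airway cilia, was near the floor at 4.29, 4.26, 4.59 and 4.86 in Sf1-Cre, 3.05 and 2.84 in Dhh-Cre as labelled and 5.57 and 5.74 in controls, and passed as lower in both groups. With the mean of all Dnah9 probe sets its change in Sf1-Cre was 0.077, so its direction there depends on the probe set.

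Dnah11, an outer arm chain of motile cilia, was the heavy chain that rose. It read 8.52, 8.61, 8.60 and 8.49 in Sf1-Cre, 9.29 and 8.78 in Dhh-Cre as labelled and 7.62 and 7.52 in controls, with no overlap between mutants and controls. The rise was 0.98 ± 0.17 in Sf1-Cre (adjusted p = 0.000816) and 1.46 ± 0.19 in the testes labelled Dhh-Cre (adjusted p = 0.0002), but with housekeeping centring it turned to -0.71 and -0.24. In GRCm38.p6 Dnah11 overlaps Cdca7l, which read 7.80, 7.57, 7.87 and 7.82 in Sf1-Cre, 8.31 and 7.96 in Dhh-Cre as labelled and 7.66 and 7.52 in controls on its own probe set, and the strand of the probes was not used. Of the light chains, Dnal4 read 6.38, 6.18, 6.01 and 5.61 in Sf1-Cre, 5.60 and 5.41 in Dhh-Cre as labelled and 8.19 and 8.33 in controls and changed by -2.22 ± 0.22 and -2.75 ± 0.25 on the log2 scale. Dnal1, an outer arm light chain, read 9.39, 9.51, 9.18 and 9.05 in Sf1-Cre, 9.08 and 8.93 in Dhh-Cre as labelled and 9.75 and 9.38 in controls, and its change of -0.28 ± 0.18 in Sf1-Cre did not pass (adjusted p = 0.186). In the testes labelled Dhh-Cre it passed at -0.56 ± 0.21 (adjusted p = 0.0396), a call lost without array 3 of Sf1-Cre (adjusted p = 0.0566), without either array labelled Dhh-Cre (0.0724 and 0.148), without control array 1 (0.214) or without the high-Spink8 arrays (0.122). Dimmer Dnal1 probe sets had log2 changes of -1.80 and -2.33 in Sf1-Cre. Dnah5, not tested, read 2.59, 2.47, 2.41 and 2.41 in Sf1-Cre, 2.31 and 2.33 in Dhh-Cre as labelled and 3.46 and 4.66 in controls, and Dnah17 read 2.00, 1.86, 1.77 and 2.07 in Sf1-Cre, 2.30 and 1.80 in Dhh-Cre as labelled and 2.14 and 2.33 in controls.

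The Cfap genes, named for cilia and flagella associated proteins, were the largest family, and 23 of 24 tested fell in each mutant group. Cfap97d1, which maintains the sperm axoneme in mice, had the deepest fall among all members in the testes labelled Dhh-Cre. It read 7.26, 6.17, 4.85 and 4.10 in Sf1-Cre, 2.43 and 5.54 in Dhh-Cre as labelled and 11.69 and 11.37 in controls, 61.3-fold lower in Sf1-Cre than in controls (adjusted p = 0.000937) and at least 185-fold lower in the testes labelled Dhh-Cre (adjusted p = 0.000532). Its 2 arrays labelled Dhh-Cre differed from each other by over 3 log2 units, and they overlapped the Sf1-Cre arrays. Cfap61, of the spoke base in Chlamydomonas, read 5.72, 5.08, 4.21 and 4.02 in Sf1-Cre, 2.54 and 2.85 in Dhh-Cre as labelled and 9.31 and 9.59 in controls, 25.9-fold lower in Sf1-Cre and at least 43.8-fold lower in the testes labelled Dhh-Cre. Cfap221, of the central apparatus, read 5.99, 5.09, 4.64 and 4.11 in Sf1-Cre, 3.22 and 3.78 in Dhh-Cre as labelled and 9.84 and 9.75 in controls, with a change of -4.84 ± 0.46 in Sf1-Cre and a fall of at least 55.5-fold in the testes labelled Dhh-Cre, where both arrays were under the floor.

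Several Cfap genes are known from sperm tail malformations in men and mice. Cfap43 read 8.53, 7.66, 6.96 and 6.44 in Sf1-Cre, 5.08 and 5.07 in Dhh-Cre as labelled and 10.66 and 10.56 in controls, 9.27-fold lower in Sf1-Cre and 46.5-fold lower in the testes labelled Dhh-Cre than in controls. Cfap65 read 9.41, 8.98, 7.96 and 6.95 in Sf1-Cre, 6.79 and 6.88 in Dhh-Cre as labelled and 11.18 and 10.76 in controls, and Cfap69 read 12.17, 11.41, 10.89 and 10.11 in Sf1-Cre, 9.26 and 10.20 in Dhh-Cre as labelled and 12.97 and 12.99 in controls. All mutant arrays were below the controls for the 3 genes. Cfap69 changed by -1.84 ± 0.52 in Sf1-Cre (adjusted p = 0.0119; 0.0623 and 0.0647 without control array 1 or 2), while 2 other probe sets of it changed by -3.88 and -4.15. Cfap206, which places a radial spoke in Tetrahymena, read 9.97, 9.78, 8.45 and 8.36 in Sf1-Cre, 5.83 and 6.25 in Dhh-Cre as labelled and 11.75 and 11.45 in controls, 8.59-fold higher in Sf1-Cre than in the testes labelled Dhh-Cre (log2 3.10 ± 0.49, adjusted p = 0.00465; 0.0537 without the high-Spink8 arrays).

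Proteins inside the doublet wall include Cfap45, Cfap52, Cfap53, Cfap126 and Cfap161. All 5 fell in each mutant group. In Sf1-Cre the log2 changes were -3.27 ± 0.35 for Cfap45, -2.23 ± 0.27 for Cfap52, -4.39 ± 0.40 for Cfap53, -1.85 ± 0.30 for Cfap126 and -1.86 ± 0.53 for Cfap161. In the testes labelled Dhh-Cre they were -5.59 ± 0.40 for Cfap45, -3.76 ± 0.34 for Cfap126 and -4.43 ± 0.61 for Cfap161, while the means of Cfap52 and Cfap53 lay under the floor, at least 11.2-fold and 38.2-fold below the controls. All 5 passed as higher in Sf1-Cre than in the testes labelled Dhh-Cre, by 2.32 ± 0.35 for Cfap45, 1.91 ± 0.30 for Cfap126 and 2.57 ± 0.53 for Cfap161, and by at least 2.39-fold for Cfap52 and 1.82-fold for Cfap53. Without the high-Spink8 arrays Cfap45 alone of the 5 passed there, with adjusted p-values of 0.0541 for Cfap126, 0.0922 for Cfap161, 0.0955 for Cfap52 and 0.189 for Cfap53. Without array 1 labelled Dhh-Cre those of Cfap161, Cfap52 and Cfap53 were 0.107, 0.0959 and 0.138. With levels under the floor set to it, that of Cfap53 was 0.176. Cfap298 and Cfap300, which help preassemble dynein arms in the cytoplasm, changed by -0.89 ± 0.25 and -2.06 ± 0.37 in Sf1-Cre and by -1.36 ± 0.29 and -2.04 ± 0.43 in the testes labelled Dhh-Cre, and their mutant groups overlapped. The Sf1-Cre calls of Cfap161, Cfap298 and Cfap410 were lost with the replicate number as a block (limma adjusted p = 0.0769, 0.0703 and 0.0541). Those of Cfap161 and Cfap298 were also lost without either control array, and that of Cfap410 without control array 1. The exceptions in the family were Cfap20, whose change of -0.28 ± 0.16 in Sf1-Cre did not pass (adjusted p = 0.15), and Cfap410, whose change of -0.44 ± 0.27 in the testes labelled Dhh-Cre did not (adjusted p = 0.16). In the testes labelled Dhh-Cre Cfap20 changed by -0.52 (limma adjusted p = 0.0344), a call lost with the replicate number as a block (0.0751). Without the high-Spink8 arrays that Cfap20 change was -0.37, and the call was lost too. A second Cfap410 probe set had log2 changes of -1.49 in Sf1-Cre and -1.05 in the testes labelled Dhh-Cre. Cfap20 is a doublet protein found in many cilia, and Cfap410 also acts outside the axoneme at the centrosome. Cfap47, not tested, read between 2.67 and 3.17 on all arrays.

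**Figure D3:**
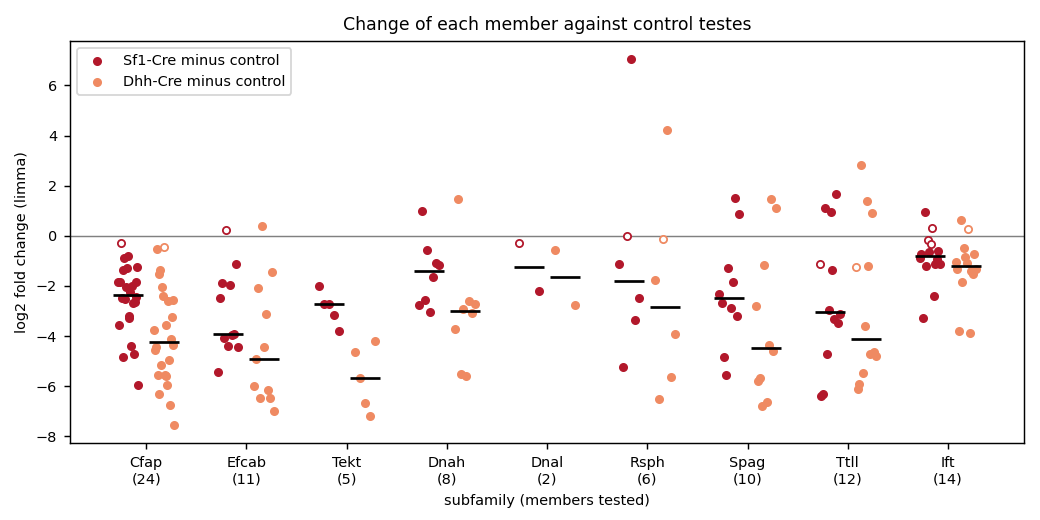
Fitted log2 fold change against control (y axis) of each member tested, by subfamily (x axis, number tested in brackets), for Sf1-Cre (left in each pair) and Dhh-Cre as labelled (right); filled points passed at a limma adjusted p under 0.05, open points did not, and bars are medians, with levels under the floor taken as they stand. The medians lie below 0 in every subfamily and are lower in Dhh-Cre than in Sf1-Cre, with Ift nearest to 0.

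The Spag genes include members of the central apparatus (Spag6, Spag6l, Spag16 and Spag17) and also genes with no tail role. Spag6 read 9.42, 8.87, 8.25 and 8.12 in Sf1-Cre, 4.44 and 5.42 in Dhh-Cre as labelled and 11.29 and 11.80 in controls, with no overlap between groups. It was 7.37-fold lower in Sf1-Cre (adjusted p = 0.00037) and 98.0-fold lower in the testes labelled Dhh-Cre (adjusted p = 1.19e-05), and 13.3-fold higher in Sf1-Cre than in the testes labelled Dhh-Cre (log2 3.73 ± 0.42, adjusted p = 0.00123). Its close copy Spag6l read 11.22, 10.55, 9.78 and 9.05 in Sf1-Cre, 7.13 and 8.12 in Dhh-Cre as labelled and 11.88 and 12.08 in controls, in the same order. Spag6l changed by -1.83 ± 0.57 in Sf1-Cre (adjusted p = 0.0173; 0.069 and 0.0942 without control array 1 or 2) and by -4.36 ± 0.65 in the testes labelled Dhh-Cre. Probes of close copies can bind each other's RNA, which was not tested for this pair. Spag16 read 8.70, 7.87, 7.49 and 7.22 in Sf1-Cre, 4.28 and 5.11 in Dhh-Cre as labelled and 10.43 and 10.55 in controls, 8.72-fold higher in Sf1-Cre than in the testes labelled Dhh-Cre (adjusted p = 0.00232). Spag17 read 4.00, 4.40, 3.48 and 2.75 in Sf1-Cre, 2.71 and 2.93 in Dhh-Cre as labelled and 8.47 and 8.52 in controls, at least 22.6-fold lower in both mutant groups.

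Spag4, a SUN-domain protein that helps join the tail to the sperm head, read 6.70, 5.64, 5.17 and 4.87 in Sf1-Cre, 4.01 and 4.69 in Dhh-Cre as labelled and 11.12 and 11.19 in controls. It was among the deepest falls in both comparisons, 47.3-fold in Sf1-Cre and 112-fold in the testes labelled Dhh-Cre. Spag1, a dynein arm assembly factor, read 8.25, 7.96, 7.41 and 7.01 in Sf1-Cre, 7.01 and 7.35 in Dhh-Cre as labelled and 10.03 and 9.89 in controls, with changes of -2.30 ± 0.33 and -2.78 ± 0.38. The spindle gene Spag5 read 10.32, 9.75, 9.29 and 9.04 in Sf1-Cre, 9.64 and 9.76 in Dhh-Cre as labelled and 10.86 and 10.91 in controls, and its changes were smaller, -1.28 ± 0.33 and -1.18 ± 0.38 (adjusted p = 0.00699 and 0.0196). The second call was lost without either array labelled Dhh-Cre (adjusted p = 0.0751 and 0.0547) or either control array (0.0688 and 0.0776). Spag7 read 8.58, 8.50, 8.67 and 8.76 in Sf1-Cre, 8.77 and 8.37 in Dhh-Cre as labelled and 7.38 and 6.83 in controls, above the controls on every mutant array. Spag9 read 10.44, 10.28, 10.58 and 10.34 in Sf1-Cre, 10.57 and 10.78 in Dhh-Cre as labelled and 9.77 and 9.33 in controls, likewise above the controls. Spag7 rose, by 1.52 ± 0.20 and 1.46 ± 0.23, as did Spag9, by 0.86 ± 0.17 and 1.12 ± 0.20, in Sf1-Cre and in the testes labelled Dhh-Cre. With housekeeping centring these turned to -0.17 and -0.23 for Spag7 and to -0.84 and -0.57 for Spag9.

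Tubulin ligases held the largest fall in Sf1-Cre and 3 of the 8 rises. Ttll10, a polyglycylase, read 4.67, 4.17, 4.19 and 3.73 in Sf1-Cre, 4.56 and 4.35 in Dhh-Cre as labelled and 10.51 and 10.65 in controls. Both mutant groups lay far below the controls and overlapped each other. It was 83.9-fold lower in Sf1-Cre (log2 -6.39 ± 0.24, adjusted p = 5.61e-07) and 69.7-fold lower in the testes labelled Dhh-Cre (log2 -6.12 ± 0.28, adjusted p = 2.15e-06). The difference between the mutant groups was -0.27 ± 0.24, with a 95% interval of -0.83 to 0.30. Ttll11, a polyglutamylase, read 2.96, 2.79, 2.89 and 2.63 in Sf1-Cre, 2.94 and 3.51 in Dhh-Cre as labelled and 9.10 and 9.14 in controls, at least 34.7-fold lower in both, while a second probe set of it lay near the floor in all groups. Ttll13 read 4.66, 4.44, 3.73 and 3.68 in Sf1-Cre, 3.26 and 3.49 in Dhh-Cre as labelled and 8.66 and 9.01 in controls, with a change of -4.71 ± 0.31 in Sf1-Cre and a fall of at least 28.6-fold in the testes labelled Dhh-Cre, where both arrays were under the floor. The glycylases Ttll3 and Ttll8 changed by -2.97 ± 0.24 and -3.48 ± 0.36 in Sf1-Cre and by -3.60 ± 0.28 and -4.65 ± 0.41 in the testes labelled Dhh-Cre.

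Ttll9, a polyglutamylase required for mouse sperm motility, read 8.62, 8.25, 7.76 and 7.47 in Sf1-Cre, 6.33 and 6.37 in Dhh-Cre as labelled and 11.25 and 11.07 in controls, with changes of -3.14 ± 0.30 and -4.81 ± 0.35. Ttll5, another polyglutamylase, read 10.90, 10.87, 10.15 and 10.01 in Sf1-Cre, 10.89 and 10.39 in Dhh-Cre as labelled and 11.93 and 11.78 in controls. It changed by less, -1.37 ± 0.30 in Sf1-Cre and -1.22 ± 0.35 in the testes labelled Dhh-Cre (adjusted p = 0.00333 and 0.012), and the second p was 0.0747 without array 2 labelled Dhh-Cre and 0.0616 without control array 1. A second Ttll5 probe set fell further, with log2 changes of -3.39 in Sf1-Cre and -3.35 in the testes labelled Dhh-Cre. Ttll1, the catalytic subunit of a polyglutamylase complex, read 7.43, 9.41, 6.19 and 5.74 in Sf1-Cre, 8.39 and 5.77 in Dhh-Cre as labelled and 9.81 and 6.79 in controls, a scatter within every group, and passed in neither comparison (adjusted p = 0.434 and 0.455). A second Ttll1 probe set was steadier within groups, with log2 changes of -2.67 in Sf1-Cre and -3.08 in the testes labelled Dhh-Cre.

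Ttll12 is a ligase-like protein without known glutamylase activity, and it was the member that passed as lower in Sf1-Cre than in the testes labelled Dhh-Cre. It read 7.47, 7.47, 7.77 and 8.31 in Sf1-Cre, 9.47 and 9.41 in Dhh-Cre as labelled and 6.50 and 6.75 in controls. Against controls it rose, by 1.13 ± 0.25 in Sf1-Cre and 2.81 ± 0.29 in the testes labelled Dhh-Cre (adjusted p = 0.0036 and 5.69e-05), and between the mutant groups it differed by -1.68 ± 0.25 (adjusted p = 0.00378; 0.0959 without the high-Spink8 arrays). With housekeeping centring the Sf1-Cre change turned to -0.57, while that of the testes labelled Dhh-Cre stayed above 0 at 1.12. Ttll4 read 9.26, 8.82, 9.26 and 9.15 in Sf1-Cre, 9.48 and 9.62 in Dhh-Cre as labelled and 8.30 and 8.05 in controls and Ttll7 read 6.17, 6.54, 6.79 and 6.76 in Sf1-Cre, 5.82 and 5.78 in Dhh-Cre as labelled and 5.04 and 4.74 in controls, each with all mutant arrays above the controls. Their rises of 0.95 ± 0.17 and 1.67 ± 0.20 in Sf1-Cre and of 1.37 ± 0.20 and 0.91 ± 0.23 in the testes labelled Dhh-Cre did not hold across probe sets. Other Ttll4 probe sets had changes of -2.55 and -1.67 in Sf1-Cre, and another Ttll7 probe set had a change of -4.77. With housekeeping centring Ttll4 turned to -0.75 and -0.32 and Ttll7 to -0.023 and -0.79.

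**Figure D4:**
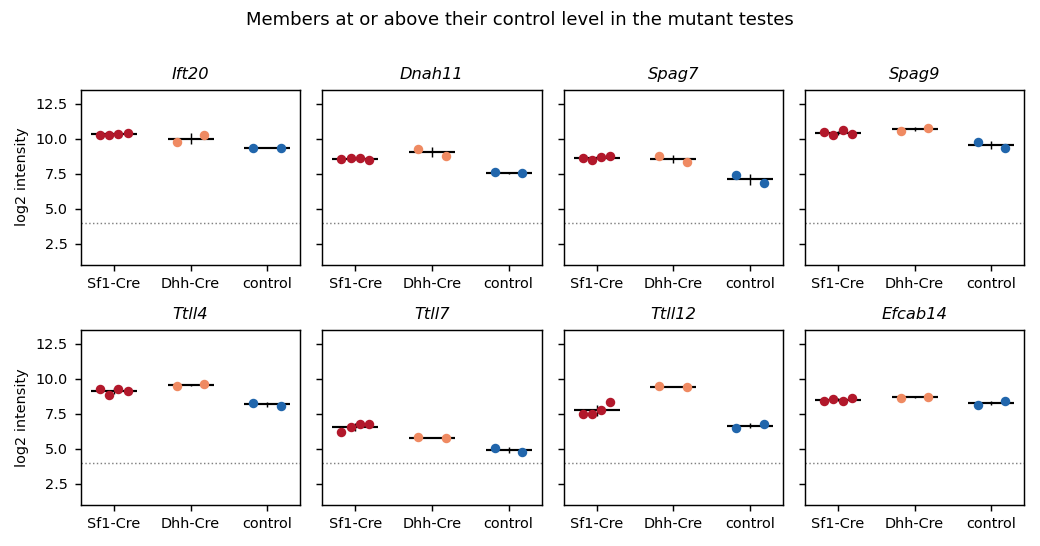
Log2 intensity on each array (points), with group means (bars) and SD (vertical lines), of the 7 members besides Rsph4a that rose in Sf1-Cre and of Efcab14, which passed in Dhh-Cre as labelled and not in Sf1-Cre; the dotted line is the floor at log2 4. For the 7, mutant arrays lie above control arrays, but after housekeeping centring all 7 turn below 0 in Sf1-Cre, and in Dhh-Cre Ttll12 stays above 0.

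The Efcab genes, which encode EF-hand proteins, fell in 10 of 11 cases in each group. Their median log2 change was -3.93 in Sf1-Cre, the lowest of the subfamilies there, and -4.90 in the testes labelled Dhh-Cre (-4.44 there with levels under the floor set to it). Efcab1, which encodes calaxin of the outer dynein arm, read 2.39, 2.92, 2.98 and 2.77 in Sf1-Cre, 2.29 and 2.14 in Dhh-Cre as labelled and 8.28 and 8.11 in controls, at least 18.3-fold lower in both, with every mutant array under the floor. Efcab9, the calcium sensor of the CatSper channel of the sperm tail, read 8.25, 6.79, 6.17 and 6.28 in Sf1-Cre, 3.60 and 5.07 in Dhh-Cre as labelled and 11.42 and 11.20 in controls, 21.6-fold lower in Sf1-Cre (adjusted p = 0.000289) and 126-fold lower in the testes labelled Dhh-Cre (adjusted p = 5.61e-05). Efcab2, of the nexin-dynein regulatory complex, read 10.60, 9.88, 9.32 and 8.58 in Sf1-Cre, 8.25 and 8.67 in Dhh-Cre as labelled and 11.66 and 11.48 in controls, with changes of -1.97 ± 0.49 and -3.11 ± 0.56. Efcab3 and Efcab6 changed by -3.96 ± 0.55 and -3.93 ± 0.42 in Sf1-Cre and by -6.15 ± 0.63 and -6.48 ± 0.49 in the testes labelled Dhh-Cre. Efcab7, which acts in Hedgehog signalling at the primary cilium, had the smallest fall of the family, -1.14 ± 0.42 and -1.46 ± 0.48 (limma adjusted p = 0.0352 and 0.0233). Its Sf1-Cre call was lost without Sf1-Cre array 2, 3 or 4 (adjusted p = 0.0519, 0.0774 and 0.0633). It was also lost with the replicate number as a block (adjusted p = 0.172) and without either control array. The Efcab7 call in the testes labelled Dhh-Cre was lost without array 1 of that label or without either control array. Efcab14 was the exception at 8.42, 8.52, 8.40 and 8.62 in Sf1-Cre, 8.65 and 8.71 in Dhh-Cre as labelled and 8.15 and 8.39 in controls. It passed as higher in the testes labelled Dhh-Cre alone (0.41 ± 0.16, adjusted p = 0.0462), a call that most of the alternatives lost (adjusted p = 0.17 without the high-Spink8 arrays).

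Intraflagellar transport genes moved least among the larger families. Of 14, 10 fell and 1 rose in Sf1-Cre, with a median log2 change of -0.82, and 12 fell and 1 rose in the testes labelled Dhh-Cre, with a median of -1.20. Falls reached 2-fold for 5 of them in Sf1-Cre and 9 in the testes labelled Dhh-Cre, against 26.1% and 25.6% of all genes tested, and none reached 16-fold. The list of other transport and primary cilium genes had the same median in Sf1-Cre, -0.82, with 25 of 37 falling and 5 rising. Those that rose in both mutant groups were Hspb11, Kif7, Ofd1, B9d2 and Tulp3, given here without housekeeping centring. Tulp3, a carrier of membrane proteins into cilia, read 8.42, 8.23, 8.59 and 8.26 in Sf1-Cre, 8.23 and 8.22 in Dhh-Cre as labelled and 5.10 and 4.91 in controls.

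Ift172 and Ift57, of the peripheral complex B, stood apart within the family. Ift172 read 8.45, 8.26, 7.81 and 7.62 in Sf1-Cre, 7.45 and 7.57 in Dhh-Cre as labelled and 11.36 and 11.25 in controls, 9.64-fold lower in Sf1-Cre (log2 -3.27 ± 0.24, adjusted p = 9.19e-06) and 13.9-fold lower in the testes labelled Dhh-Cre (log2 -3.79 ± 0.28). Ift57 read 9.40, 8.81, 8.85 and 8.57 in Sf1-Cre, 7.19 and 7.70 in Dhh-Cre as labelled and 11.35 and 11.28 in controls, 5.3-fold and 14.6-fold lower in these groups. No other Ift gene changed by more than -1.20 in Sf1-Cre on the probe set used. Of the other complex B genes, Ift22 read 10.55, 10.29, 9.98 and 9.72 in Sf1-Cre, 9.18 and 9.84 in Dhh-Cre as labelled and 11.25 and 11.42 in controls. Ift74 read 11.74, 11.28, 10.95 and 10.78 in Sf1-Cre, 10.90 and 10.87 in Dhh-Cre as labelled and 12.33 and 12.27 in controls. Ift88 read 8.24, 7.68, 7.58 and 7.34 in Sf1-Cre, 7.60 and 7.42 in Dhh-Cre as labelled and 8.91 and 8.73 in controls. These 3 changed by -1.10 (Ift88) to -1.20 (Ift22) in Sf1-Cre, with all mutant arrays below the controls.

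Ift80 read 9.91, 9.61, 9.11 and 9.06 in Sf1-Cre, 8.44 and 9.23 in Dhh-Cre as labelled and 10.37 and 10.36 in controls, and Ift81 read 8.13, 7.70, 7.63 and 7.27 in Sf1-Cre, 7.55 and 7.59 in Dhh-Cre as labelled and 8.41 and 8.20 in controls. Ift80 changed by -0.94 ± 0.30 in Sf1-Cre (adjusted p = 0.0213; 0.0923 and 0.0901 without control array 1 or 2), and its second probe set had a change of -3.09. Ift81 changed by -0.62 ± 0.23 and -0.74 ± 0.26 (adjusted p = 0.0336 and 0.031). The Ift81 calls were lost without either control array, at adjusted p = 0.173 and 0.0749 in Sf1-Cre and 0.136 and 0.0629 in the testes labelled Dhh-Cre, without Sf1-Cre array 2 or 3 (0.0604 and 0.0681 in Sf1-Cre), without array 1 or 2 labelled Dhh-Cre (0.0986 and 0.083 there) and without the high-Spink8 arrays (0.0695 there). Ift46 read 10.04, 9.77, 9.84 and 9.94 in Sf1-Cre, 9.27 and 9.01 in Dhh-Cre as labelled and 10.20 and 10.26 in controls, and its change of -0.34 ± 0.15 in Sf1-Cre did not pass (adjusted p = 0.0603; 0.0471 without Sf1-Cre array 1), while it changed by -1.10 ± 0.17 in the testes labelled Dhh-Cre. Between the mutant groups Ift46 differed by 0.76 ± 0.15 (adjusted p = 0.00956; 0.0665 without array 2 labelled Dhh-Cre and 0.115 without the high-Spink8 arrays). Ift27 read 11.01, 11.00, 10.88 and 10.81 in Sf1-Cre, 10.63 and 10.59 in Dhh-Cre as labelled and 11.02 and 11.19 in controls and passed as lower in the testes labelled Dhh-Cre alone (-0.50 ± 0.15, adjusted p = 0.0168). That call was lost without either array of that group (0.0522 and 0.0654), without control array 2 (0.0861) or without the high-Spink8 arrays (0.114).

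Complex A carries cargo back towards the cell body, and its 3 members here fell by less than 1 log2 unit in Sf1-Cre. Ift140 read 12.02, 11.81, 11.44 and 11.14 in Sf1-Cre, 10.99 and 10.99 in Dhh-Cre as labelled and 12.39 and 12.28 in controls. Ift122 read 10.79, 10.53, 10.37 and 10.13 in Sf1-Cre, 10.31 and 10.29 in Dhh-Cre as labelled and 11.28 and 11.43 in controls. Ift43 read 11.18, 11.04, 10.98 and 10.65 in Sf1-Cre, 10.65 and 10.90 in Dhh-Cre as labelled and 11.51 and 11.74 in controls. In Sf1-Cre the change was -0.74 ± 0.24 for Ift140 (adjusted p = 0.0226; 0.053 without Sf1-Cre array 3 and 0.113 and 0.075 without control array 1 or 2), -0.90 ± 0.19 for Ift122 and -0.66 ± 0.18 for Ift43 (adjusted p = 0.0103; 0.0847 without control array 2). In the testes labelled Dhh-Cre the changes were -1.34 ± 0.28, -1.06 ± 0.22 and -0.85 ± 0.21, the last lost without the high-Spink8 arrays (adjusted p = 0.0641). A second Ift122 probe set had a change of -2.09 in Sf1-Cre.

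Ift20, which also serves traffic from the Golgi, was the transport gene that rose. It read 10.24, 10.27, 10.35 and 10.40 in Sf1-Cre, 9.73 and 10.26 in Dhh-Cre as labelled and 9.36 and 9.35 in controls, with every mutant array above the controls. The rise was 0.96 ± 0.17 in Sf1-Cre (adjusted p = 0.00103) and 0.64 ± 0.20 in the testes labelled Dhh-Cre (adjusted p = 0.0161), the second lost without array 2 labelled Dhh-Cre (adjusted p = 0.106) or either control array (0.058 and 0.0604). With housekeeping centring it turned to -0.74 and -1.05. Ift52, a core complex B gene, read 7.61, 7.90, 7.41 and 7.55 in Sf1-Cre, 7.79 and 7.39 in Dhh-Cre as labelled and 7.12 and 7.49 in controls, overlapping in all groups, and passed in no comparison, at 0.32 ± 0.20 and 0.29 ± 0.23 against controls. With housekeeping centring Ift52 was at -1.38 and -1.41.

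Between the mutant groups, 42 of the 92 members were higher in Sf1-Cre than in the testes labelled Dhh-Cre, 1 was lower and 49 did not pass, where 12.9% of all genes tested were higher and 11.8% lower. The members' share higher was 45.7%, their median difference was 1.00 on the log2 scale against 0.02 over all genes tested, and 81 fitted differences lay above 0. The Sf1-Cre arrays all lay above both arrays labelled Dhh-Cre for 52 members and below for 4, against 24.5% and 23.2% of all genes tested. Of the 42, 8 had a mean under the floor in the testes labelled Dhh-Cre, and for 1 of these, Rsph14, the Sf1-Cre mean was under it too. Tektins had the largest median difference, 2.96, with 4 of 5 passing, and Dnah genes followed at 1.78 with 5 of 8. The Cfap median was 1.48 with 14 of 24 passing, the Rsph median 1.36 with 4 of 6, the Efcab median 1.13 with 5 of 11 and the Spag median 1.04 with 4 of 10. The Ttll median was 0.38 with 4 of 12 higher and the Ift median 0.32 with 2 of 14. With levels under the floor set to it, 35 members passed as higher, and the medians were 0.76 over the members, 1.15 for Cfap, 1.49 for Dnah, 1.04 for Rsph, 0.84 for Spag and 0.20 for Ttll. No difference between subfamilies was tested.

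This count moved widely as arrays were left out, and leaving out 1 array labelled Dhh-Cre keeps only 1 in that group. The members' median log2 difference was 0.90 without array 1 of that label and 1.18 without array 2. Without the 3 arrays of high Spink8 it was 0.69. Without array 1 labelled Dhh-Cre, 14 members were higher in Sf1-Cre, where 3.68% of all genes tested were, and without the 3 arrays of high Spink8 11 were, where 2.69% of all genes were. Those 11 include Tekt2, Tekt3, Tekt4, Spag6, Spag16, Rsph4a, Rsph6a and Dnah2. Tekt4 then differed by 3.33 and Spag6 by 3.07 (adjusted p = 0.0231 and 0.0202). Rsph9, among others, was called with all arrays and not without those of high Spink8 (adjusted p = 0.183), nor without array 1 labelled Dhh-Cre (0.113).

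**Figure D5:**
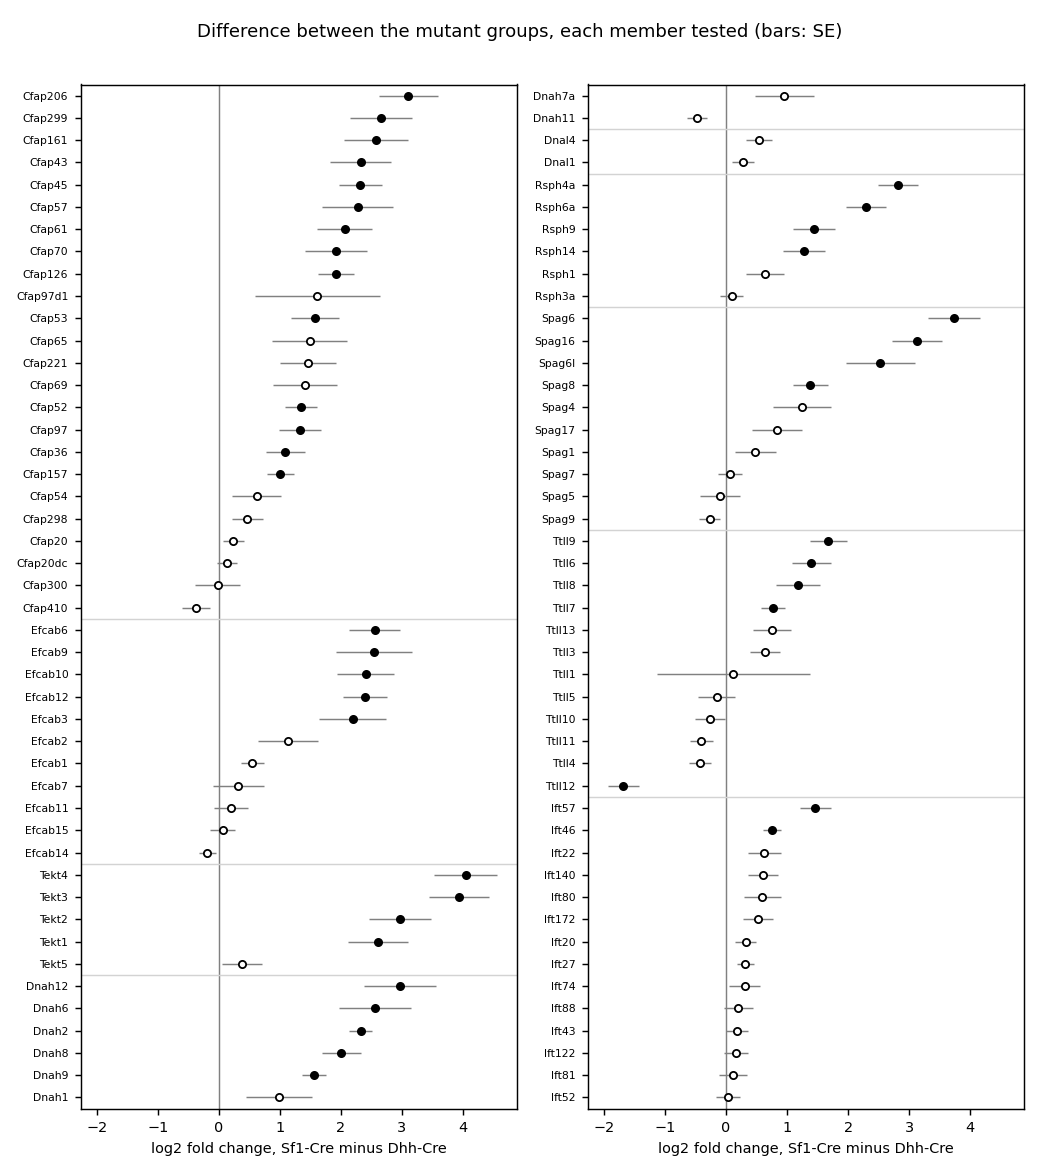
Fitted log2 difference, Sf1-Cre minus Dhh-Cre as labelled (x axis), of each member tested (rows, ordered within subfamily), with SE as horizontal lines and levels under the floor taken as they stand; filled points passed at a limma adjusted p under 0.05 and open points did not. Most points lie right of 0, Tekt4, Tekt3 and Spag6 farthest, and Ttll12 is the filled point left of 0.

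Members also varied together among the 4 Sf1-Cre arrays. Array 1 was the highest of the 4 for 74 of the 92 members tested (80.4%), against 34.2% of all genes tested. Array 4 was the lowest for 71 (77.2%), against 31.7% of all genes. Among genes that fell in Sf1-Cre, array 1 was the highest for 92.1% of members and 71.5% of all such genes. The median log2 level of the 95 members was 8.58, 8.33, 7.76 and 7.29 on Sf1-Cre arrays 1 to 4, 6.04 and 6.77 on the pair labelled Dhh-Cre, and 10.18 and 10.25 on the control arrays. The range over the Sf1-Cre arrays had a median of 1.15 over the members, against 0.53 over all genes tested. Cfap97d1 was an example, at 7.26 on array 1 and 4.10 on array 4. The members that rose did not follow this order: array 1 was the highest for 1 of the 8.

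Among the Sf1-Cre arrays, spermatocyte and spermatid markers followed the same order as the members, from highest on array 1 to lowest on array 4, and spermatogonia markers did not. The median log2 level of 15 round spermatid markers was 7.84, 6.75, 6.25 and 5.32 on Sf1-Cre arrays 1 to 4, 3.31 and 4.69 on the pair labelled Dhh-Cre, and 11.53 and 11.49 on the control arrays, and all 15 fell in both mutant groups. For 20 spermatocyte markers it was 9.99, 9.45, 8.92 and 8.63 in Sf1-Cre, 8.74 and 8.89 on the pair labelled Dhh-Cre, and 10.92 and 10.85 on the control arrays, with 15 and 10 falling. Elongating spermatid markers had medians of 9.40, 8.32, 7.49 and 6.88 in Sf1-Cre, 7.00 and 9.76 on the pair labelled Dhh-Cre, which differed from each other, and 13.07 and 12.87 on the control arrays. The median of 10 spermatogonia markers was 5.89, 6.87, 6.39 and 6.68 in Sf1-Cre, 7.57 and 7.38 on the pair labelled Dhh-Cre, and 7.49 and 6.74 on the control arrays. Between the mutant groups the spermatocyte, elongating spermatid and spermatogonia medians differed from the members. For spermatocyte markers both arrays labelled Dhh-Cre lay above Sf1-Cre array 4. For elongating spermatid markers 1 of them lay above every Sf1-Cre array, and for spermatogonia markers both did. Round spermatid markers had the members' order, with every Sf1-Cre array above both arrays labelled Dhh-Cre. Of these 15, 10 passed as higher in Sf1-Cre and 0 as lower, where 12.9% of all genes tested were higher. These lists hold no member, and their part in the members' changes was not tested.

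Genes of the same structures that the naming rule left out were counted alongside. Of 31 other axoneme genes tested, 31 fell in Sf1-Cre and 29 in the testes labelled Dhh-Cre, with medians of -2.34 and -3.91. Hydin, of the central apparatus, read 5.90, 5.36, 4.59 and 3.79 in Sf1-Cre, 2.99 and 3.46 in Dhh-Cre as labelled and 8.92 and 9.27 in controls. Dnaaf2 and Tcte1 were those that did not pass in the testes labelled Dhh-Cre. Of 17 genes of the fibrous sheath, outer dense fibres and tail channels, 16 fell in each group, with medians of -3.12 and -5.24, and Tsga10 passed in neither. Akap4, the main fibrous sheath protein, read 9.41, 8.56, 7.74 and 7.60 in Sf1-Cre, 5.03 and 8.47 in Dhh-Cre as labelled and 13.40 and 13.53 in controls, with the arrays labelled Dhh-Cre far from each other. These genes were listed with earlier results of these data known, and their counts are a description.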

How the data were processed

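Total RNA of 8 whole-testis samples was labelled with biotin and hybridized to 1 array of 45101 probe sets each. The deposited intensity values had been made with GCRMA, per the submitters' processing notes, with version and settings not given in the sources used here. Their log2 was taken here. Probe sets with exactly 1 symbol numbered 34958, and 34754 matched by Entrez identifier to GRCm38.p6 (RefSeq), which changed 0 symbols. Each gene was read from its probe set of highest mean, and 13802 genes with at least 2 arrays at log2 4 (intensity 16) were tested.

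Group means were fitted over all 8 arrays in R 4.3.3, using version 3.58.1 of limma, with 5 residual and 2.73 prior degrees of freedom. P-values are 2-sided and adjusted by Benjamini and Hochberg over all genes tested, with 0.05 as the threshold. Errors beside fitted changes are standard errors. Folds with 1 group mean under log2 4 are bounds against that floor. The fit was tested on simulated data. Members and lists were chosen with earlier results of these data known. Genes given on every array were the 10 largest changes each way in Sf1-Cre, 5 each way in Dhh-Cre and between the mutant groups, and genes fixed by role. Other members, and probe sets that differ from the one used, were named after their values were seen. Alternatives changed 1 choice at a time: quantile normalization, housekeeping centring, no filter or a filter at log2 6, low values set to log2 4, trended robust moderation, array weights, 2 groups only, the mean of all probe sets, platform symbols, the replicate number as a block, stricter thresholds, and leaving out each array or the 3 arrays on which Spink8 reached log2 10. Figures were drawn with Python 3.11.15, pandas 2.3.3 and matplotlib 3.10.9.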

Additional observations from a re-analysis of the deposited data

How the results depend on the processing

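Of 183 results on 61 named members, 168 had a value under all 22 alternatives, and 99 of these kept direction and side of the threshold in all. The other 15 lacked a value where a stricter filter or a left-out array removed the gene, and 10 of them kept both where they had one. Counts of members higher were 1 in Sf1-Cre and 2 in Dhh-Cre as labelled, each against control, with housekeeping centring, and 4 in Sf1-Cre with a 2-fold minimum. Between the mutant groups 21 were higher at an adjusted p under 0.01, 11 without the 3 arrays of high Spink8 and 14 without Dhh-Cre replicate 1. There 2 were lower with the mean of all probe sets and 0 without the high-Spink8 arrays, where limma called 2.60% of all genes tested lower. Leaving out each array in turn gave 8 to 8 higher and 59 to 77 lower in Sf1-Cre against control, 7 to 9 higher and 70 to 79 lower in Dhh-Cre against control, and 14 to 51 higher and 1 to 2 lower in Sf1-Cre against Dhh-Cre. With housekeeping centring the Sf1-Cre changes of Dnah11, Ift20, Ift52, Spag7, Spag9, Ttll12, Ttll4 and Ttll7 were -0.71, -0.74, -1.38, -0.17, -0.84, -0.57, -0.75 and -0.023. The Dhh-Cre changes of Dnah11, Ift20, Ift52, Spag7, Spag9, Ttll4 and Ttll7 were -0.24, -1.05, -1.41, -0.23, -0.57, -0.32 and -0.79. That centring left 14.8% of all genes tested higher and 68.3% lower in Sf1-Cre against control, and 14.6% higher and 61.9% lower in Dhh-Cre against control. With the mean of all probe sets Dnah9 was at 0.077, Ttll4 at -0.82 and Ttll7 at -1.55 in Sf1-Cre, and Ttll4 at -0.33 and Ttll7 at -2.12 in Dhh-Cre. The cause of these moves was not tested, beyond the fewer arrays where arrays were left out. With the replicate number as a block, 66 members were lower and 8 higher in Sf1-Cre, 77 lower and 8 higher in Dhh-Cre, and 56 were higher in Sf1-Cre than in Dhh-Cre. The Sf1-Cre calls lost with that block were those of Cfap161, Cfap298, Cfap410, Dnah7a, Efcab7, Ift140, Ift43, Ift80, Ift81 and Spag6l. Same-numbered arrays correlated at -0.19 to 0.38 after group means were removed. In groups of 2 the deviations mirror each other, so this check cannot show whether the numbers pair the samples. A left-out array leaves Dhh-Cre or control with 1 array, assumed to vary like the other groups. Groups of 2 and the probe set used limit the smaller changes.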
